A study of Drosophila melanogaster with 12 samples.

Results

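The genes for the synthesis, vesicular transport and turnover of dopamine, ple, Ddc, Pu, Vmat, e, t and speck, were followed in heads of Drosophila melanogaster over the first 2 days after a daily temperature cycle had ended. The probe sets taken were all those that the platform annotation gives to 1 of these 7 genes alone, by current symbol or synonym. Of the 10844 genes with a probe set of their own these are 7, with 8 probe sets of the 13966 non-control probe sets in the table, 2 of them for Vmat and 1 for each of the other 6 genes. Of the 8, 7 passed the filter on low values (more than 50% of values above the 20th percentile of their array), 1 per gene, as did 11156 of the 13966. The 8th, the second Vmat probe set, lay between 3.62 and 3.98 log2, at or below the 18th percentile of every array, and was not tested.

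All arrays came from adult cn bw flies. The cn and bw mutations affect genes for eye pigments, and bw is known as a transporter gene for the pteridine pigments that share a precursor pathway with the product of Pu. The flies were reared in constant darkness, first at 25 °C and then for more than 4 days in a cycle of 12 h at 18 °C and 12 h at 25 °C, and were then held at 25 °C in the dark. Per the study's methods, newly eclosed adults stayed in the cycle for a further 4 days before constant temperature began. The time since the cycle ended is written as AA (ambient after ambient) with hours counted from the start of the first subjective cryophase. Subjective cryophase means the part of the day in which the flies had been at 18 °C, and subjective thermophase the part at 25 °C that came after it. Each of the 12 Affymetrix Drosophila Genome 1 arrays held RNA from the pooled heads of 1 collection, every 4 h from AA2 to AA46, so that each of 6 times of day was sampled once on day 1 and once on day 2. The labels do not say that the days came from separately reared flies, so the spread behind every p-value is that of the arrays and may be technical.

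Dopamine is made from tyrosine in a pair of steps, loaded into synaptic vesicles, and in insects removed mainly by conjugation to beta-alanine or to an acetyl group. In the fly head it is a transmitter of a small set of neurons that act in arousal, movement and memory, and it is also the precursor of dark and pale cuticle pigments made in epidermal cells. In pooled heads, fewer cells of a type and less RNA per cell cannot be told apart.

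Levels are log2 values after robust multi-array averaging (RMA), so 1 unit is a doubling, and they compare arrays for 1 probe set but not probe sets with each other. Array medians lay between 5.64 and 5.67 log2. The array of AA46 stood apart: its mean correlation with the other arrays was 0.992 across probe sets, against 0.996 or more for the rest, and the mean of its 18S controls was 4.09 log2, where the rest had 2.78 to 2.99 log2. Marker levels are each the log2 of the summed linear levels of a list. Most of those of AA46 also lay outside the range of the other 11 arrays. They were above it for muscle (8.17 against 7.22 to 7.42 log2), digestive and reproductive tissue (8.98 against 8.68 to 8.81 log2) and photoreceptors (12.28 against 11.81 to 12.22 log2). They were below it for neurons (7.51 against 7.53 to 7.91 log2) and glia (7.67 against 7.72 to 7.98 log2). Those of fat body (15.63 against 15.58 to 15.88 log2) and of other amine neurons (5.78 against 5.76 to 6.04 log2) lay within it. ple, Pu and t had their lowest value on that array, and the part of these markers in it was not tested. Of the head markers, the photoreceptor genes trp and inaD and the neuronal gene nSyb passed the filter and the neuronal gene elav did not.

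Transcripts of ple, which encodes tyrosine hydroxylase, the rate-limiting enzyme of dopamine synthesis, had the largest estimated difference of the 7 both between days and between phases. On day 1 its level was 7.76 log2 at AA2, 7.76 at AA6, 7.39 at AA10, 7.30 at AA14, 7.31 at AA18 and 7.22 at AA22. On day 2 it was 7.38 at AA26, 7.25 at AA30, 7.31 at AA34, 7.14 at AA38, 7.17 at AA42 and 7.12 at AA46. The highest values thus stood on the first 2 arrays after the cycle ended and the lowest on the last array, 1.57-fold apart. Day 2 was below day 1 at 6 of 6 times of day, by 0.08 to 0.51 log2, as it was for 4.4% of all tested probe sets.

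Ddc encodes dopa decarboxylase, which turns L-dopa into dopamine and also makes serotonin. Its level was 8.84, 8.86, 8.90, 8.74, 8.87 and 8.81 log2 from AA2 to AA22, and 8.83, 9.10, 9.01, 8.85, 8.91 and 8.80 log2 from AA26 to AA46. The profile was flat on day 1 and highest at AA30 and AA34, 1.28-fold from the lowest to the highest array. Pu encodes GTP cyclohydrolase I, the entry enzyme for the pterin cofactor of tyrosine hydroxylase and for pteridine eye pigments. Its level was 7.78, 7.79, 7.83, 7.54, 7.96 and 7.87 log2 on day 1 and 7.51, 7.92, 7.97, 7.74, 7.72 and 7.33 log2 on day 2, in the order of collection. It was low at AA14, AA26 and AA46 and within 7.72 to 7.97 log2 on the other 9 arrays, and its lowest value came from the array that stood apart.

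Vmat encodes the vesicular monoamine transporter, which loads dopamine, serotonin and other amines into vesicles. The level of its tested probe set was 9.70, 9.64, 9.65, 9.56, 9.53 and 9.66 log2 on day 1 and 9.77, 9.63, 9.64, 9.61, 9.48 and 9.57 log2 on day 2. It had the narrowest range of the 7 genes, 1.22-fold, with the highest value of each day at its first collection (AA2 and AA26) and the lowest in the middle of its thermophase (AA18 and AA42). The days differed at any time of day by at most 0.10 log2 (day 2 minus day 1 from -0.10 to 0.07 log2).

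Of the turnover genes, e (ebony) encodes the synthase that couples beta-alanine to dopamine and, in glia of the visual system, to histamine. Its level was 8.50, 8.42, 8.45, 8.23, 8.40 and 8.48 log2 on day 1 and 8.59, 8.57, 8.50, 8.49, 8.50 and 8.54 log2 on day 2. It dipped at AA14 on day 1, with no like dip at AA38, and was higher on day 2 at 6 of 6 times of day, by 0.06 to 0.26 log2, a pattern shared by 5.38% of all tested probe sets. t (tan) encodes the hydrolase that frees dopamine and histamine from their beta-alanyl conjugates, the reverse of the step made by the product of e. Its level was 9.69, 9.47, 9.35, 9.34, 9.48 and 9.49 log2 on day 1 and 9.32, 9.32, 9.52, 9.43, 9.80 and 9.10 log2 on day 2. The highest and the lowest value of t, 1.62-fold apart, were those of 2 successive collections, AA42 and AA46. speck encodes the arylalkylamine N-acetyltransferase that acetylates dopamine. Its level was 8.55, 8.79, 8.68, 8.57, 8.56 and 8.70 log2 on day 1 and 8.61, 8.80, 8.61, 8.55, 8.39 and 8.66 log2 on day 2, with the highest value of each day at its second collection (AA6 and AA30).

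**Figure D1:**
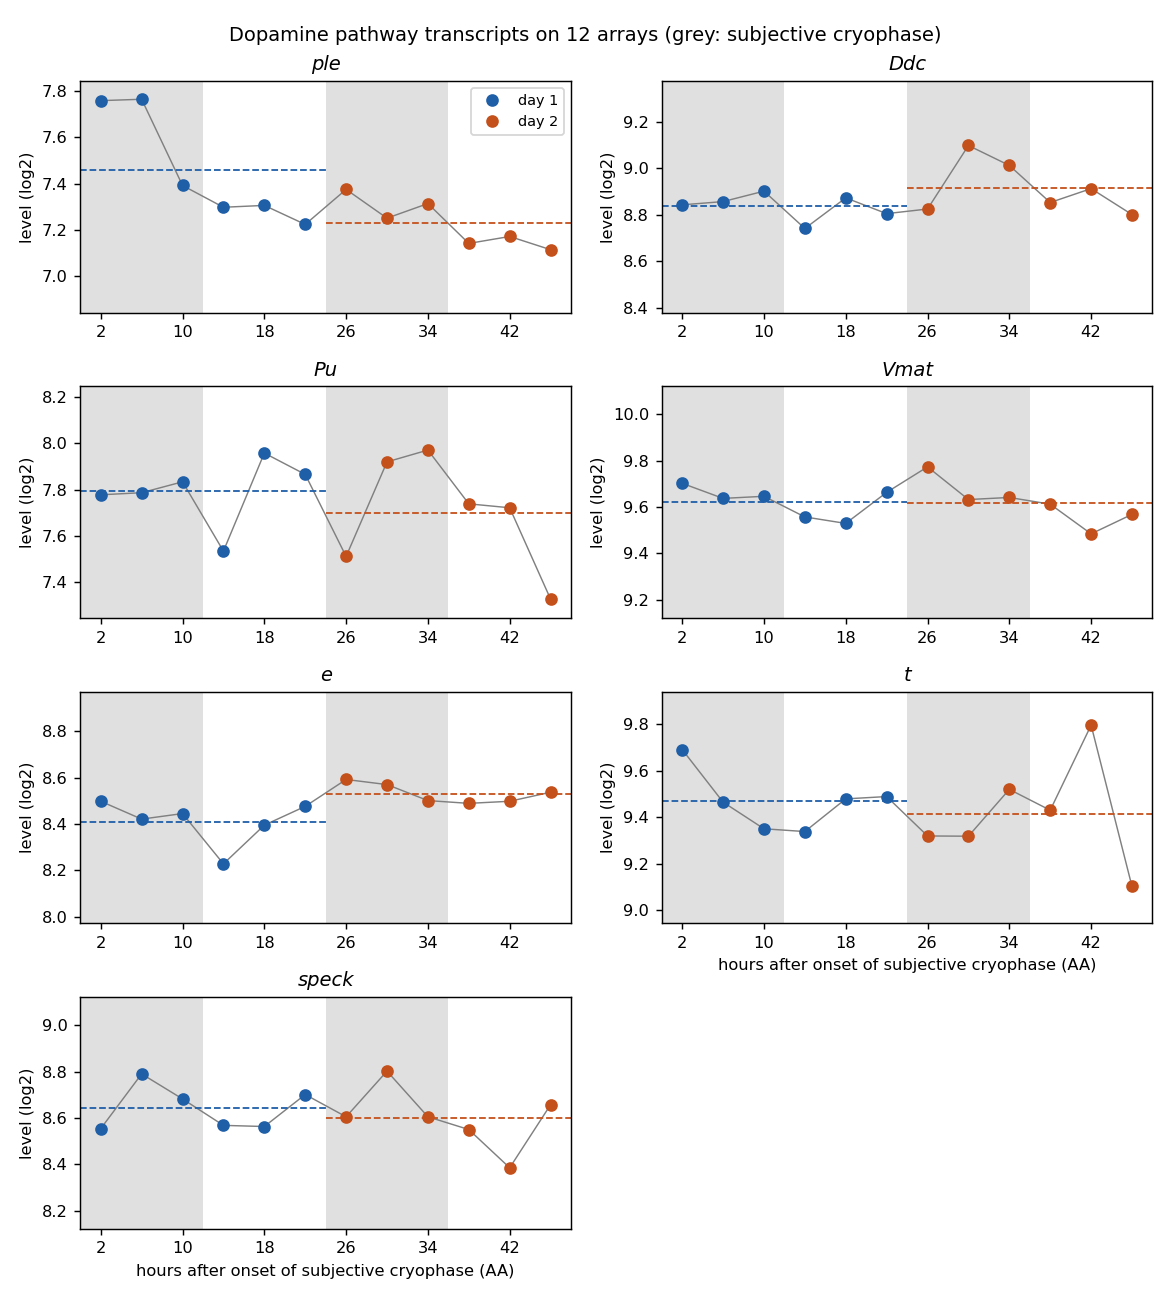
Level of each gene (log2, vertical axis, each spanning 1 log2 unit) on the 12 arrays against the AA time in hours (grey bands mark the subjective cryophase), with day 1 in blue and day 2 in orange. Points are single arrays and dashed lines the mean of the 6 arrays of a day. ple starts at 7.76 log2 and ends at 7.12 log2, while Vmat stays between 9.48 and 9.77 log2.

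The first comparison asked which of these transcripts kept a 24-h rhythm once temperature was constant. The score was the share of the variance over the 12 arrays that lies in a 24-h cosine wave, set against random orders of the arrays. None of the 7 genes was called rhythmic after Benjamini-Hochberg adjustment over the 11156 tested probe sets, and neither was any other probe set (0%). At an unadjusted permutation p under 0.05, 1 of the 7 genes passed, Vmat, beside 6.11% of all tested probe sets. A limma cosine fit also called 0 of the 7, beside 0.296%.

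The wave held 59.1% of the variance of Vmat, and its fitted peak exceeded its trough 1.12-fold (0.16 ± 0.05 log2, SE of the fit to 12 arrays). The peak fell at 4.2 ± 1.1 h, and the permutation p was 0.0148 (adjusted 0.619). Its second probe set, below the filter, gave 1.11-fold and peaked at 0.85 ± 2.4 h (permutation p = 0.320). The fit of speck peaked at 5.4 ± 1.4 h with 1.16-fold (0.21 ± 0.08 log2, permutation p = 0.0548, adjusted 0.840), in the same part of the subjective cryophase. ple had the largest fitted ratio of the 7, 1.29-fold (0.37 ± 0.15 log2), and peaked at 5.0 ± 1.5 h (permutation p = 0.0883, adjusted 0.911). Since its level was also lower on day 2, the fit with a linear trend removed gave 1.14-fold (0.18 ± 0.09 log2, permutation p = 0.165). With the trend removed, Vmat no longer had an unadjusted p under 0.05 (permutation p = 0.0519) and e had (permutation p = 6.7e-04, adjusted 0.450), beside 6.65% of all tested probe sets.

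For e the ratio was 1.11-fold (0.15 ± 0.07 log2), peaking at 2.2 ± 1.7 h (permutation p = 0.120). Without AA14 this ratio was 1.06-fold (permutation p = 0.379). With the mean of each day removed first, and the arrays reordered only within days, the permutation p of e was 0.00287 (adjusted 0.294), that of ple 0.0258 (adjusted 0.525) and that of Vmat 0.0237 (adjusted 0.520), so that 3 of the 7 had an unadjusted p under 0.05, beside 7.84% of all tested probe sets, and none was called. Ddc peaked at 8.0 ± 2.1 h with 1.10-fold (permutation p = 0.242), and Pu at 9.8 ± 3.0 h with 1.15-fold (permutation p = 0.483), which was 1.05-fold without AA46. The wave held 2.5% of the variance of t (1.05-fold, permutation p = 0.891), whose peak time of 17.5 ± 8.0 h is not determined by these arrays.

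**Figure D2:**
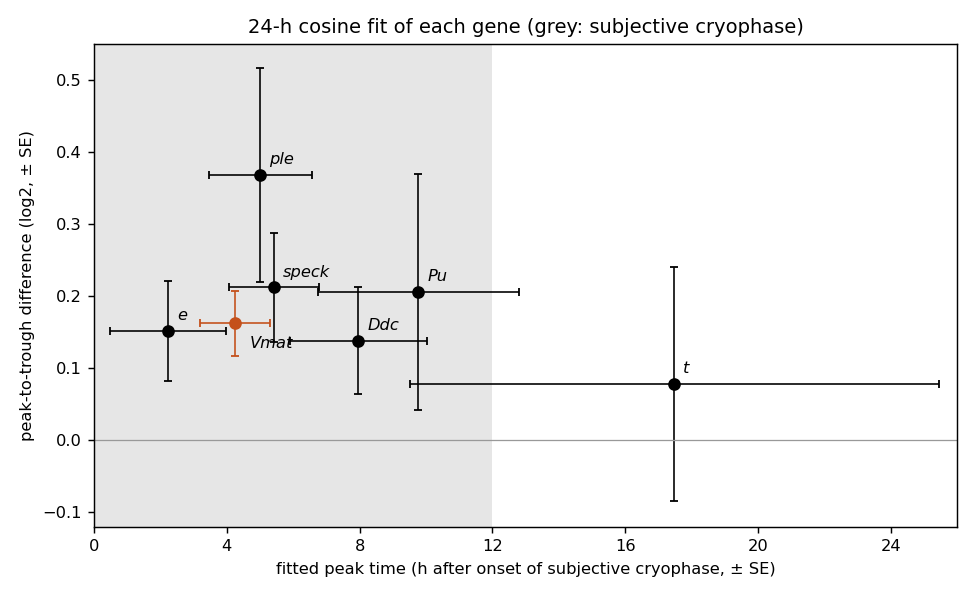
Peak-to-trough difference (log2, ± SE) against fitted peak time (h into the subjective cryophase, ± SE) for the 24-h cosine fit of each gene over 12 arrays, with the subjective cryophase in grey and the gene with an unadjusted permutation p under 0.05 (Vmat) in orange. 6 of the 7 peaks lie between 2.2 and 9.8 h.

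Fitted peaks of 6 of the 7 genes fell in the subjective cryophase, all but that of t, while 44.4% of all tested probe sets peaked there. The median share of variance in the wave was 34.9% for the 7 genes and 13.5% for all tested probe sets. The 7 genes share their arrays and are not independent of each other, so these shares are a description.

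The second comparison asked whether levels in the once warm part of the day differed from those in the once cold part. With day as a term in limma, the estimate was lower in the subjective thermophase for 7 of the 7 genes, with a median of -0.10 log2. Of all tested probe sets 45.0% had a lower estimate, with a median of 0.008 log2. In the lists of related genes described below it was lower for 5 of 6 genes of amine uptake and receptors. It was also lower for 3 of 3 of beta-alanine and histamine handling and 3 of 5 of pterin cofactor and hydroxylase partners. For melanin and cuticle pigment it was 9 of 17, for acyltransferases 1 of 5, and Tdc1 was not lower. None of the 7 was called (limma, adjusted p over all tested probe sets), beside 0.341% of all tested probe sets, and 2 of the 7 had an unadjusted p under 0.05, ple and Vmat, beside 8.87%.

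For ple the 6 cryophase arrays had a mean of 7.48 ± 0.23 log2 (SD) and the 6 thermophase arrays 7.21 ± 0.08 log2, a difference of -0.27 ± 0.06 log2 (SE), or 1.20-fold (limma adjusted p = 0.115). On day 1 the 3 cryophase arrays had a mean of 7.64 log2 and the 3 thermophase arrays 7.28 log2, and on day 2 the means were 7.31 and 7.14 log2. Within each day every thermophase array lay below every cryophase array, as it did for 0.663% of all tested probe sets, whereas pooled over days the groups overlapped. The thermophase arrays of a day follow its cryophase arrays, so a steady fall and a phase difference point the same way. With a linear trend in place of the day term, chosen after seeing the data, the difference of ple was -0.15 ± 0.06 log2 (limma adjusted p = 0.552). Without the arrays of AA2 and AA6, left out here and for the days after their values were seen, it was also -0.15 log2 (limma adjusted p = 0.686), and without AA10 it was -0.31 log2 (limma adjusted p = 0.0336), a call. That fit called 46 of 11181 tested probe sets, against 38 of 11156 with all arrays.

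Vmat had a mean of 9.67 ± 0.06 log2 (SD) in the cryophase and 9.57 ± 0.06 log2 in the thermophase, a difference of -0.10 ± 0.04 log2 (limma adjusted p = 0.502). Its groups overlapped on day 1 and did not on day 2, a pattern of day 2 that 5.07% of all tested probe sets shared. speck differed by -0.10 ± 0.06 log2, Pu by -0.11 ± 0.09 log2, Ddc by -0.09 ± 0.05 log2 and e by -0.07 ± 0.05 log2 (limma adjusted p from 0.617 to 0.789). t differed by -0.005 ± 0.09 log2 (limma adjusted p = 0.994), and its estimate turned to 0.03 log2 with a linear trend in place of the day term and to 0.06 log2 without AA46, so the shared direction covers 6 genes and not t. With the linear trend, Ddc (-0.14 log2) and e (-0.13 log2) joined ple at an unadjusted p under 0.05 and Vmat dropped out, which left 3 of the 7, none called, beside 8.43% of all tested probe sets. Single arrays moved the smaller estimates: that of Pu was -0.04 log2 without AA46, and that of e -0.03 log2 without AA14.

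The phase difference of the 7 genes did not pass the test for a change between days. For 0 of the 7 was the interaction of phase and day called in limma, as for 0% of all tested probe sets, and at an unadjusted p under 0.05 it was 0 of the 7, beside 3.23%. For ple the difference was 0.19 ± 0.12 log2 closer to 0 on day 2 (limma adjusted p = 0.998), and for Pu it was 0.19 ± 0.19 log2 farther from 0, an interaction of -0.19 log2.

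The third comparison set day 2 against day 1 within times of day. None of the 7 genes was called in limma, beside 1.61% of all tested probe sets, and 2 of the 7 had an unadjusted p under 0.05, ple lower and e higher, beside 14.8%. The mean of ple was 7.46 ± 0.24 log2 (SD, 6 arrays) on day 1 and 7.23 ± 0.10 log2 on day 2, a difference of -0.23 ± 0.06 log2 (SE), or 1.17-fold (limma adjusted p = 0.0978). The ranges overlapped, 7.22 to 7.76 log2 on day 1 and 7.12 to 7.38 log2 on day 2. Without AA22 or without AA46, each of which takes its time of day out of the comparison, the difference was -0.25 log2 and was called (limma adjusted p = 0.0471 and 0.0470). In these 2 fits the calls over all tested probe sets were 371 of 11184 and 380 of 11177, against 180 of 11156 with all arrays. Without both AA2 and AA6 the difference of ple was -0.12 log2 (limma adjusted p = 0.735).

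A linear trend over the 12 collection times, tried after seeing that ple fell within day 1 too, gave a slope of -0.0123 ± 0.0024 log2 per h for ple (limma adjusted p = 0.0118). It was the only one of the 7 called, beside 2.99% of all tested probe sets. Without AA2 the slope was -0.0103 log2 per h (limma adjusted p = 0.0583). Without both AA2 and AA6 it was -0.0061 log2 per h (limma adjusted p = 0.284). The call of ple was thus lost without these first arrays, where calls over all tested probe sets fell too. Those were 334 of 11156 with all arrays, 184 of 11181 without AA2 and 52 of 11155 without AA2 and AA6.

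The mean of e was 8.41 ± 0.10 log2 (SD, 6 arrays) on day 1 and 8.53 ± 0.04 log2 on day 2, a difference of 0.12 ± 0.05 log2, or 1.09-fold (limma adjusted p = 0.239), and the ranges met only at 8.49 to 8.50 log2. The other 5 genes differed by -0.09 ± 0.09 log2 (Pu) to 0.08 ± 0.05 log2 (Ddc), with limma adjusted p from 0.499 to 0.981, and the difference of Pu was -0.0056 log2 without AA22 or AA46. The median of the 7 differences was -0.04 log2, and that of all tested probe sets 0.002 log2.

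Some marker levels moved between days as well. Of the 5 photoreceptor markers 2 were measured, trp and inaD, and both rose on day 2, by 0.23 log2 each (limma adjusted p = 0.0238 and 0.0342). Their summed level was 11.81 to 12.04 log2 on day 1 and 12.03 to 12.28 log2 on day 2, the highest on the array of AA46. Of 4 fat body markers, Yp2, a yolk protein gene, fell by 0.23 log2 (limma adjusted p = 0.0460). The yolk protein genes Yp3 and Yp1 had estimates of -0.20 and -0.11 log2 (limma adjusted p = 0.0710 and 0.306). The remaining marker, Lsp2, went the other way, with 0.06 log2 (limma adjusted p = 0.818). The summed level of the 4 was 15.74 to 15.88 log2 on day 1 and 15.58 to 15.84 log2 on day 2. On the arrays of AA2 and AA6, where ple was highest, the summed fat body level was 15.84 and 15.88 log2, against 15.58 to 15.84 log2 on the rest. Neuronal markers stood at 7.91 and 7.77 log2 (rest 7.51 to 7.88 log2). The 2 markers of other amine neurons, of which only 1 passed the filter on low values, stood at 6.029 and 6.036 log2. The rest had 5.762 to 6.027 log2, so these arrays were barely above that range. Photoreceptor markers stood at 11.83 and 11.81 log2 (rest 11.83 to 12.28 log2). Summed levels of the glial, muscle, and digestive and reproductive lists lay within the range of the rest. None of the 2 neuronal and 3 glial markers that were tested was called, with summed levels of 7.53 to 7.91 and 7.72 to 7.96 log2 on day 1 and 7.51 to 7.88 and 7.67 to 7.98 log2 on day 2. Between phases no marker was called, with trp at 0.21 log2 in thermophase minus cryophase (limma adjusted p = 0.0977) and Yp2 at -0.14 log2 (limma adjusted p = 0.551). In the linear trend trp and inaD rose (limma adjusted p = 0.00395 and 0.00926) and Yp2 and Yp3 fell (limma adjusted p = 0.0210 and 0.0293), beside the fall of ple. Yp1 and Lsp2 were not called there (limma adjusted p = 0.210 and 0.670). The part of these shifts in the values of ple and e was not tested.

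**Figure D3:**
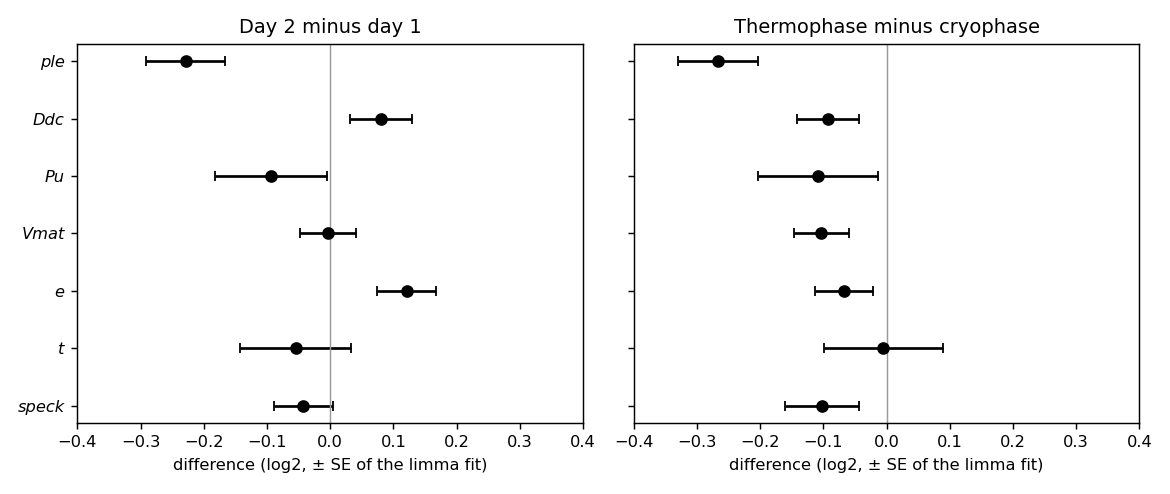
Difference in level for each gene (log2, ± SE of the limma fit over 12 arrays), day 2 minus day 1 on the left and subjective thermophase minus cryophase on the right. ple has the largest difference in both panels (-0.23 and -0.27 log2), and all 7 estimates on the right are below 0, that of t by 0.005 log2.

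Whether the steps of the pathway varied together from array to array was examined through all 21 pairs of the 7 genes. None of the 21 correlations passed adjustment over the pairs, and 1 had an unadjusted permutation p under 0.05. That pair was Ddc and Pu, the decarboxylase and the cofactor enzyme, with Pearson's r of 0.63 (permutation p = 0.0309, adjusted 0.519) and Spearman's rho of 0.66 (permutation p = 0.0238, adjusted 0.499) over 12 arrays. Both were low at AA14 and AA46 and high at AA30 and AA34. Without the 2 arrays farthest from the median of Ddc, r was 0.55, within day 1 it was 0.76 and within day 2 0.87, and with day means removed 0.84 (permutation p = 0.00342, adjusted 0.0718).

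t and speck, whose products act on the beta-alanyl and the acetyl branch, had a negative correlation, with r of -0.56 (permutation p = 0.0581, adjusted 0.519) and rho of -0.49 (permutation p = 0.110). Without the 2 arrays farthest from the median of t, which are those of AA42 and AA46, r was -0.31, while without AA42 alone it was -0.26 and without AA46 alone -0.62, so the relation rests on the array of AA42. ple and Ddc, which act in succession, had r of -0.07 (permutation p = 0.827), and e and t, which act in opposite directions, had r of -0.04 (permutation p = 0.899). ple and Vmat had r of 0.46 (permutation p = 0.139), 0.53 within day 1 and 0.79 within day 2, and with day means removed 0.53 (permutation p = 0.0464, adjusted 0.325). Vmat and e had r of 0.44 (permutation p = 0.152), 0.75 within day 1 and 0.68 within day 2, and with day means removed 0.62 (permutation p = 0.0115, adjusted 0.121).

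**Figure D4:**
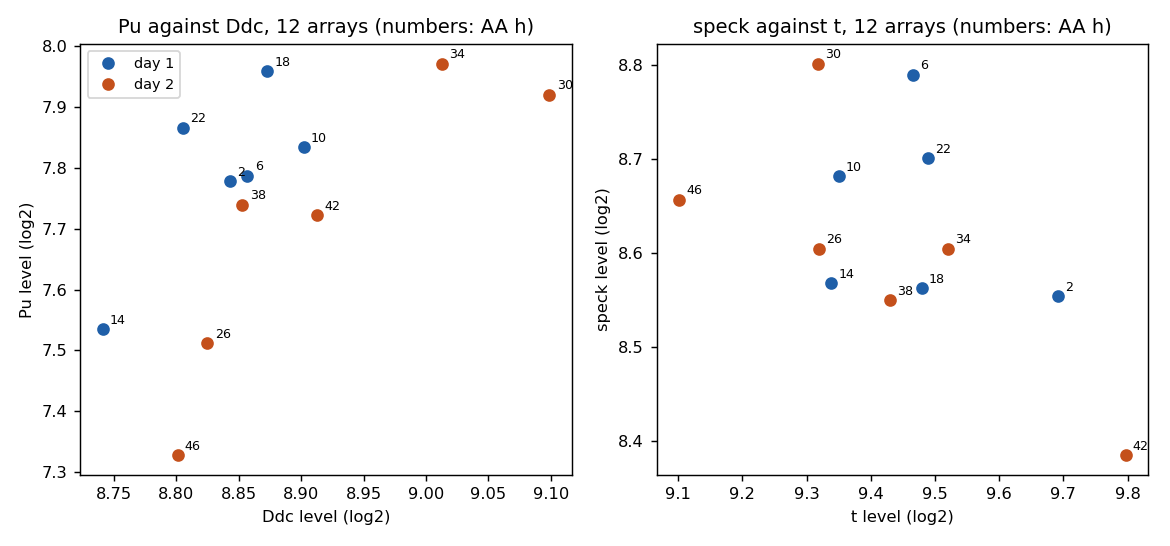
Level of Pu against Ddc (left) and of speck against t (right) on the 12 arrays (log2 on both axes), each point an array with its collection time in hours, day 1 in blue and day 2 in orange. Ddc and Pu have r of 0.63, and the negative r of t and speck (-0.56) leans on the array of AA42.

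Among all tested probe sets with 1 symbol, the profiles most like that of ple belonged to Mtr3 (r of 0.89 over 12 arrays), Mp (0.88) and MTA1-like (0.84). Those most like Ddc were Nep1 (0.91), ACC (0.89) and CG1371 (0.87), and those most like Pu were crb (0.93), CG5973 (0.93) and Sec24CD (0.92). For Vmat they were rg (0.88), Mdr49 (0.85) and Cyp28d2 (0.84), for e Cyp6a13 (0.95), Vps15 (0.93) and Nepl21 (0.93), for t CG6424 (0.95), fipi (0.94) and Nin (0.94), and for speck CG43078 (0.85), Gmap (0.83) and Pp2B-14D (0.82). No gene was among the nearest of more than 1 member, and these are the highest correlations by selection, given with no test.

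Genes around the pathway were counted from lists by role. Of 5 tested genes for the pterin cofactor and partners of the hydroxylase, 0 had a permutation p under 0.05 for rhythm, beside 6.11% of all tested probe sets. Of the 5, 1 was lower on day 2 at an unadjusted limma p under 0.05, beside 7.26%, and none was called by phase or day. Of 6 tested genes for amine uptake and receptors, 3 were lower on day 2 at an unadjusted limma p under 0.05, beside 7.26% of all tested probe sets, none was higher and none was called. The 3 tested genes of beta-alanine and histamine handling had no unadjusted p under 0.05 in any of these tests, nor had Tdc1, a tyrosine decarboxylase gene and the 1 tested gene of other amine synthesis. Of 5 tested acyltransferase genes related to speck, 1 was lower on day 2 at an unadjusted limma p under 0.05, beside 7.26% of all tested probe sets. None of the 5 was called.

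Of 17 tested genes of melanin and cuticle pigment, which draw on dopamine and dopa, 4 were higher on day 2 at an unadjusted limma p under 0.05, beside 7.5% of all tested probe sets, and none was lower. By phase, 1 was lower in the thermophase at an unadjusted limma p under 0.05, beside 4.28%, and none was called. Between days 1 of the 17 was called, beside 1.61% of all tested probe sets. It was yellow-d, a member of the yellow family, with a rise of 0.22 log2 on day 2 (limma adjusted p = 0.0248). In no list other than that of the 7 genes themselves did a gene have a permutation p under 0.05 for rhythm.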

How the data were processed

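RNA from pooled heads of 12 collections was hybridised to 1 array each. The deposited values are log2 levels that the authors computed with RMA (background correction, quantile normalization, median polish), with no version stated. Quantile normalization hides a change shared by most transcripts. The number of arrays limits the precision. Gene symbols are those of the platform annotation, brought up to date with RefSeq: 12443 probe sets had 1 symbol, 327 several and 1196 none. Sequences and coordinates are not given. Probe sets with more than 50% of values above the 20th percentile of their array were tested.

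Arrays were grouped by time of day, with the day, read from the collection time, as replicate. Rhythm was scored by 24-h spectral power against 100000 random time orders, and peak times came from a cosine fit. Phase, day, interaction and trend were tested with limma 3.58.1 (R 4.3.3). p-values were adjusted (Benjamini-Hochberg) over all tested probe sets, for correlations over the 21 pairs, and called under 0.05. Tests were checked on simulated data. Named genes were the 7 genes, genes of the lists with a rhythm p under 0.05 or a call, and the 3 nearest profiles per gene. nSyb, elav, Tdc1, Yp1, Lsp2 and the correlated pairs fell outside that rule or were picked with values seen. The members and lists were chosen with earlier results of these data known. The phase and day comparisons use the same 12 arrays. Alternatives were median centring, quantile normalization, a linear scale, other filters and periods, trend or day terms, array weights, a limma cosine fit, averaged probe sets and leaving out each array.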

Additional observations from a re-analysis of the deposited data

How the results depend on the processing

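Precision is limited by 1 array per time of day and day, and by the small ranges of the 7 genes. Under any alternative run none of the 7 genes was called rhythmic, none of their pairs correlated, and none had a called phase-by-day interaction. Over all tested probe sets rhythm calls were 0 in the main test and 3 with day means removed. They were 33 in the limma cosine fit, 104 in that fit with array weights, and 0 to 3 with single arrays left out. Interaction calls over all tested probe sets were 0, apart from 1 without AA14. At an unadjusted p under 0.05 the number of rhythmic genes, 1 in the main test, was 3 with the replicate block (day means removed), 2 with arrays centred on their medians, 2 with a 23-h period, 2 in the limma cosine fit and 0 with the probe sets of a gene averaged, and it ranged from 1 to 2 with single arrays left out. Of the 11156 tested probe sets, 682 passed in the main test and 875 with the replicate block. The other counts, in the order given, were 635, 604, 629 and 681, and 535 to 809 with single arrays left out. The number of genes called between days, 0 in the main fit, was 1 (ple) with array weights and with the linear trend, and 0 to 1 with single arrays left out. Calls over all tested probe sets were 180 in the main fit, 450 with array weights, 334 with the trend and 80 to 380 with single arrays left out. At an unadjusted p under 0.05 it was 2, against 3 with array weights, 1 with the trend, 0 without the arrays of AA2 and AA6, and 1 to 2 with single arrays left out. Among all tested probe sets these counts moved too, from 1647 to 2299 with array weights, 1936 with the trend and 866 without AA2 and AA6. With single arrays left out they were 1197 to 2331. The number called between phases, 0, was 1 (ple) with array weights and 0 to 1 with single arrays left out. Calls over all tested probe sets were 38, against 77 with array weights and 17 to 49 with single arrays left out. At an unadjusted p under 0.05 it was 2, against 1 with quantile normalization, with averaged probe sets and without AA2 and AA6, 3 with the linear trend, and 1 to 3 with single arrays left out. Among all tested probe sets the main count was 989, and the others, in the order given, were 1028, 988, 604 and 941. With single arrays left out they were 739 to 1220. For the interaction the unadjusted count, 0, was 1 with array weights, whose estimation stopped before it converged there, and 0 to 1 with single arrays left out. Among all tested probe sets it was 360, against 1071 with array weights and 266 to 855 with single arrays left out. For the pairs of the 7 genes the unadjusted count was 1, against 3 with the replicate block, 2 with averaged probe sets and 0 to 2 with single arrays left out. The cause of these shifts was not tested.

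Signs turned for the following estimates, none of them called. The day difference of Vmat, -0.004 log2, was 0.007 log2 with median centring, 0.0089 log2 with array weights, 0.0042 log2 without AA18 or AA42 and 0.0142 log2 without AA22 or AA46 (range with single arrays left out -0.019 to 0.0142 log2). That of t, -0.05 log2, was 0.009 log2 without AA2 or AA26, 0.012 log2 without AA22 or AA46 and 0.048 log2 without AA2 and AA6 (range with single arrays left out -0.13 to 0.012 log2). The phase difference of t, -0.005 log2, was 0.0019 log2 with quantile normalization, 0.0071 log2 with array weights, 0.029 log2 with the linear trend and 0.066 log2 without AA2 and AA6. It was 0.044 log2 without AA2, 0.024 log2 without AA14, 0.018 log2 without AA34 and 0.064 log2 without AA46, with a lowest value of -0.09 log2. The correlation of ple with Ddc, -0.07, was 0.17 as Spearman's rho, 0.23 with the replicate block and 0.036 without AA30. The 6 genes other than t kept the sign of their phase difference, and the 5 other than Vmat and t that of their day difference, in every alternative run.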
